A study of Mus musculus with 4 samples.

Results

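The clustered histone genes encode the core histones H2A, H2B, H3 and H4 and the linker histone H1, and lie side by side in a few clusters of the mouse genome. They were selected on their GENCODE mouse M21 symbol, all those starting with Hist and a cluster number from 1 to 4 followed by h, among the 12390 genes of the deposited table. The rule found 53 genes, of 70 such symbols in the annotation. Having a row depended on measured values, since the lowest maximum over the 4 libraries of any listed gene was 1.0063 RPKM (reads scaled by transcript length and by the total reads of the library). Hist1h1d lay just inside that limit, with 1.0063 RPKM as its highest value, and levels of the 17 symbols without a row were not analysed here. Of the 53, 47 belong to cluster 1 on chromosome 13, 4 to cluster 2 on chromosome 3 and 2 to cluster 3 on chromosome 11. By class they are 5 H1, 15 H2A, 13 H2B, 10 H3 and 10 H4 genes, with Hist1h2aj annotated as an unprocessed pseudogene.

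RNA came from hematopoietic stem cells sorted from mouse bone marrow through a lineage-negative, Sca-1+, c-Kit+, CD48-, CD150+ gate. Control libraries 1 and 2 were from mice with floxed Ddx21 alleles, which the submitters spell Ddx211fl/fl, and knockout libraries 1 and 2 from mice with the same alleles and CAG-CreERT2. CAG-CreERT2 is a Cre recombinase under a promoter active in most tissues and switched on by tamoxifen, so deletion is not limited to blood cells. The controls carry no Cre. The sources used here do not give dosing, the time after it, the age of the mice or how many animals the libraries came from. The spread between these libraries may therefore be technical. The p-values for deposited values take that spread from a trend over all genes, and not from each gene alone. The study asked about the role of Ddx21, an RNA helicase of the nucleolus, in these cells.

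Most clustered histone genes are transcribed in S phase, when new chromatin has to be packed, and their messages are the known animal mRNAs that end without a poly(A) tail. In place of the tail they carry a short stem-loop just after the coding region, which the stem-loop binding protein SLBP holds through processing, translation and decay. A cut after the stem-loop needs the U7 small nuclear ribonucleoprotein, and the messages are degraded when DNA synthesis stops. Some of the genes can also yield longer, polyadenylated messages from a downstream AATAAA signal, a form known from cells that have left the cycle. The Smart-Seq V4 kit used for these low inputs primes on poly(A), so the values below are for RNA that such priming could reach.

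The stem-loops of 7 genes are printed here because they are the element that sets this family apart from other messages. Each is a stretch of 30 bases of the mm10 transcript sequence, 5′ to 3′, with both arms of the stem in capitals and DNA letters. Hist1h1c is at chr13:23739505-23739534 on the plus strand, Hist1h2ao at chr13:21810891-21810920 on the plus strand, Hist1h2ap at chr13:21833026-21833055 on the minus strand and Hist1h4d at chr13:23581943-23581972 on the plus strand. Hist1h4j is at chr13:21735430-21735459 on the plus strand, Hist2h3c2 at chr3:96238478-96238507 on the minus strand and Hist3h2a at chr11:58955165-58955194 on the plus strand.
Hist1h1c: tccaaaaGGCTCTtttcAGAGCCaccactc
Hist1h2ao: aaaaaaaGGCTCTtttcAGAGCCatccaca
Hist1h2ap: aaaaaaaaaaaGGCTCTtttcAGAGCCatc
Hist2h3c2: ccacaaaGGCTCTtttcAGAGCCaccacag
Hist3h2a: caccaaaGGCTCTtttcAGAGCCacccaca
Hist1h4d: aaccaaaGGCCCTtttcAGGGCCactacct
Hist1h4j: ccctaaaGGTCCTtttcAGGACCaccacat
The loop letters are the same in all 7, while the stem of both H4 genes differs from that of the other classes. A stem of 6 paired bases around a loop of 4 that starts with T and ends with C was found within 150 bases after the stop codon in 29 of the 41 members with enough annotated sequence (70.7%). Over all coding genes, these members included, 140 of 21118 held such a stretch (0.663%). Where none was found, that says only that these letters are not in the annotated window.

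The second signal, AATAAA, was searched in the last 50 bases of every annotated transcript with a stop codon. A gene counted if any such transcript held it. It was found for 7 of 52 members with an annotated stop codon (13.5%), against 14590 of 21830 coding genes (66.8%). Genes with several transcripts had more chances to count, and among the members only Hist1h2be has several, so this contrast may be overstated. The 7 were Hist1h1c, Hist1h2ae, Hist1h4j, Hist2h2be, Hist2h4, Hist3h2a and Hist3h2ba. The annotation of some other members, such as Hist1h2ak, ends at the stop codon. There the bases searched were coding, and a missing AATAAA says nothing about a signal further on. Stretches of 30 bases around it are printed for 6 of them, with the signal in capitals, because fold changes are compared below between genes with and without it. Hist1h1c is at chr13:23740330-23740359 (plus), Hist1h2ae at chr13:23570527-23570556 (minus) and Hist2h2be at chr3:96223705-96223734 (plus). Hist2h4 is at chr3:96261697-96261726 (minus), Hist3h2a at chr11:58956785-58956814 (plus) and Hist3h2ba at chr11:58949495-58949524 (plus), all on mm10.
Hist1h1c: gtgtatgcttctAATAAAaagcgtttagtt
Hist1h2ae: cccagcttctccAATAAAtgggtcaatttt
Hist2h2be: gttattattattAATAAAgttaccgattag
Hist2h4: tcgtatacataaAATAAAatcttaaaaaca
Hist3h2a: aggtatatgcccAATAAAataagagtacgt
Hist3h2ba: cataatggtattAATAAAtttggttcaatt
Of the 7, Hist1h1c, Hist1h2ae, Hist1h4j, Hist3h2a and Hist3h2ba hold both elements, a stem-loop close to the stop codon and an AATAAA near the end of the annotated transcript.

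The libraries held 43198649 to 62853208 recovered reads, and neither replicate pair agreed within sampling noise. Ddx21, the targeted gene, stood at 11.0 and 12.1 RPKM in the controls and at 6.20 and 6.60 RPKM in the knockouts, for a log2 fold change of -0.76 (SE 0.30, limma adjusted p = 0.158). With each library divided by a trimmed-mean factor it was -1.08 (limma adjusted p = 0.0964), and voom on the reads so rescaled called it lower (adjusted p = 0.0303). In the fit of deposited values, all 10 markers of neutrophils and myeloid granules were called lower, and their share of reads went from 7.50% and 7.84% to 5.45% and 3.61%. All 6 bone matrix markers were called higher, with shares of 0.0698% and 0.0574% in control and 1.08% and 0.304% in knockout. Procr, a stem cell marker, was called higher, and all 4 sort markers were measured, with none called. After rescaling limma called none of these myeloid and bone matrix markers or Procr, and among them voom called only Col1a1 (adjusted p = 0.0483). Cd48, used for negative selection, stood at 30.4 and 20.7 RPKM in control and at 23.8 and 32.4 RPKM in knockout. Fewer cells of a type and less RNA per cell cannot be told apart in such bulk samples, and the part of these shifts in the histone values was not tested.

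Because most genes had higher deposited values in the knockout libraries, with a median log2 fold change over 11742 tested genes of 0.31, fold changes were computed on 2 scales. The deposited scale is log2(RPKM + 1), used below wherever rescaling is not named, which understates the change of low genes. The rescaled one divides each library by a trimmed-mean factor, which brings the median of all genes to 0.01. On the deposited scale limma called 3.33% of all tested genes higher and 0.860% lower at an adjusted p under 0.05, and 0 of the 51 tested clustered histone genes in either direction. After rescaling it called 0.00852% of all genes in either direction, and 0 members. Voom on the rescaled reads, another limma fit, called 0.435% higher and 0.187% lower, again with 0 members. At an unadjusted p under 0.05, 11 members were lower (21.6%, against 2.45% of all genes) and 1 was higher (1.96%, against 13.8%). Rescaled, 26 were lower (51.0%, against 7.51%) and 1 was higher (1.96%, against 8.32%).

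Clustered histone genes therefore lay mostly below other genes in the knockout libraries, without any single one passing the threshold. The median log2 fold change of the 51 was -0.22 on the deposited scale and -0.55 after rescaling. A log2 fold change below 0 was seen in 38 members (74.5%) on the deposited scale, against 16.9% of all genes, and in 44 (86.3%) after rescaling, against 48.1%. In 20 members (39.2%) both knockout libraries lay below both controls, as in 7.38% of all genes, and in 7 (13.7%) both lay above, as in 55.5%. After rescaling these counts were 33 members below (64.7%, against 26.1%) and 4 above (7.84%, against 28.4%). Some related lists, given below, had shares as high after rescaling. Knockout library 1 had a rescaled member median of -0.34 relative to the control mean and knockout library 2 one of -0.68, with all genes at 0.00 and 0.03. Both knockout libraries thus had a negative median, and it was lower in the second.

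**Figure D1:**
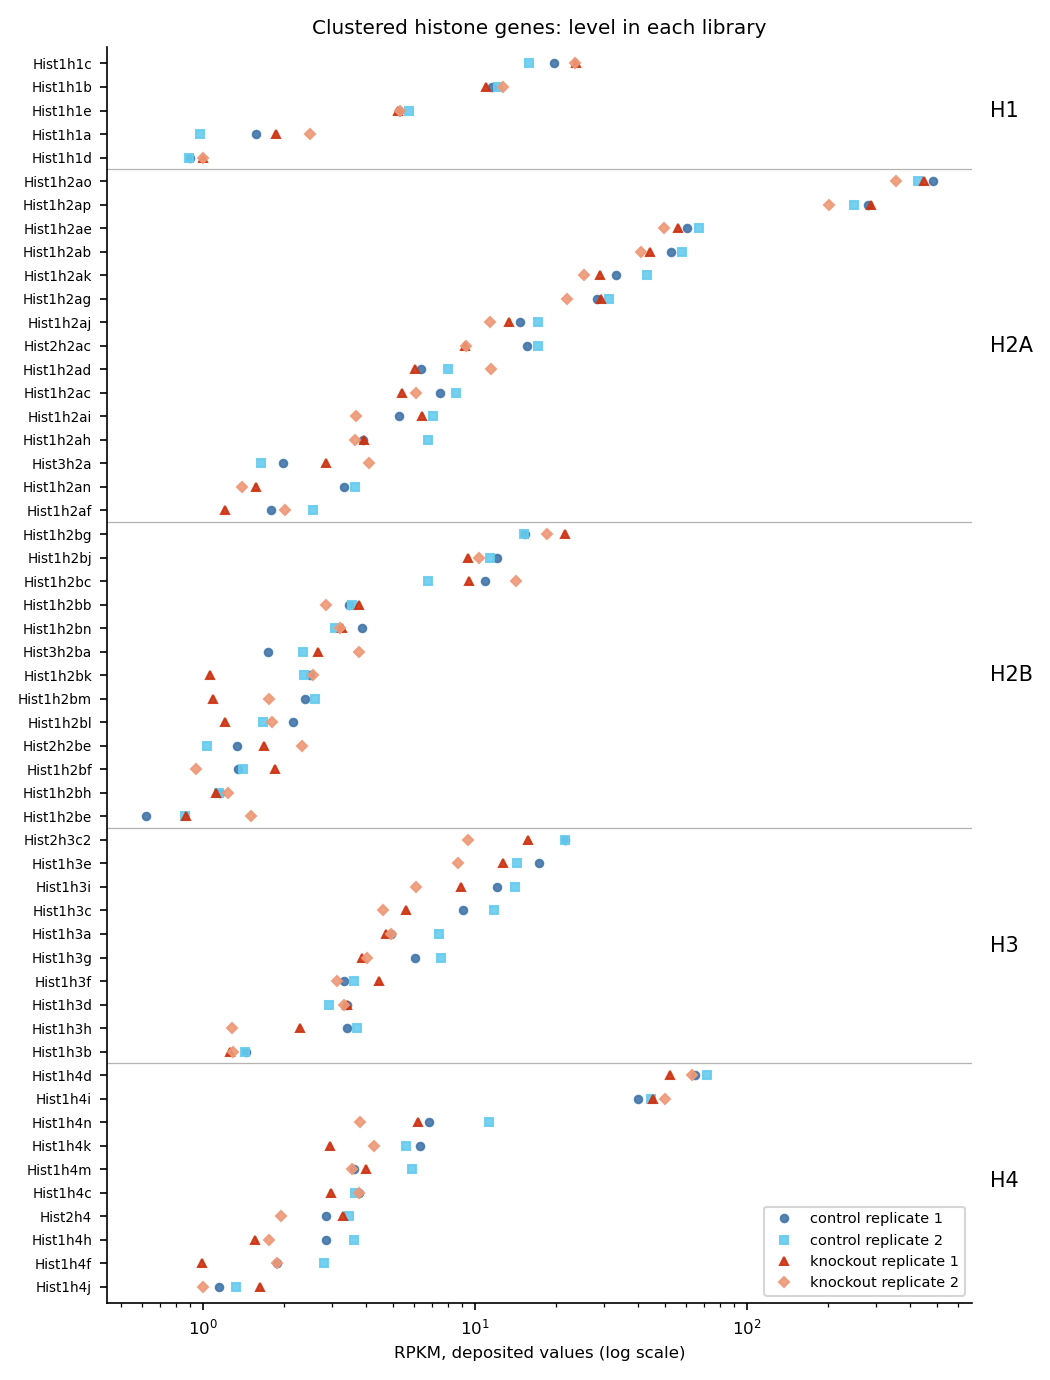
RPKM of the 53 clustered histone genes on a log axis, with 1 point for each library and genes grouped by histone class and ordered by mean. Levels run from 0.62 RPKM for Hist1h2be in control library 1 to 485 RPKM for Hist1h2ao. In most H3 genes both knockout points lie to the left of both control points.

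Levels spanned a wide range, and a pair of H2A genes carried much of the signal. Hist1h2ao (ENSMUSG00000094248, chr13:21810465-21810944) stood at 485 and 428 RPKM in control and at 450 and 354 RPKM in knockout, for a log2 fold change of -0.19 (SE 0.16, limma adjusted p = 0.474), and -0.55 after rescaling. Hist1h2ap (ENSMUSG00000094777, chr13:21833026-21833507) stood at 279 and 249 RPKM in control and at 285 and 201 RPKM in knockout, for a log2 fold change of -0.14, and -0.49 after rescaling. On the deposited scale knockout library 1 lay within the control range in the first and above it in the second, and knockout library 2 below it in both. After rescaling, both knockout libraries lay below both controls in Hist1h2ao, and in Hist1h2ap knockout library 1 lay within the control range. Together they took 46.5% and 42.0% of all clustered histone reads in control and 47.6% and 40.3% in knockout. Of the 50-base words in their longest transcripts, 93.5% and 93.1% also occur in other annotated genes, so how reads were divided between them is uncertain. The 53 genes summed to 1312 and 1279 RPKM in control and to 1229 and 1037 RPKM in knockout, a ratio of means of 0.874, and of 0.699 after rescaling. Their share of all recovered reads was 0.0794% and 0.0778% in control and 0.0748% and 0.0668% in knockout. Without Hist1h2ao and Hist1h2ap the summed ratio was 0.849, and 0.670 after rescaling.

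H3 genes, whose product forms the core tetramer of the nucleosome with H4, had the lowest fold changes of the 5 classes. Their summed level was 82.4 and 88.2 RPKM in control and 63.1 and 46.8 RPKM in knockout, so both knockout sums lay below both controls. The ratio of means was 0.644, and 0.519 after rescaling. The median log2 fold change of the 10 genes was -0.59, and -0.90 after rescaling. In 7 of them both knockout libraries lay below both controls, against 7.38% of all genes. In none did both lie above, against 55.5% of all genes. Hist2h3c2 (ENSMUSG00000081058, chr3:96238108-96239127, minus strand, mm10) had the smallest adjusted p of all members on the deposited scale. It stood at 21.5 and 21.4 RPKM in control and at 15.7 and 9.46 RPKM in knockout, with means of 21.5 ± 0.050 and 12.6 ± 4.44 (SD, n = 2 per group). The control libraries nearly coincide and the knockout libraries lie apart from each other, both below them. Its log2 fold change was -0.76 (SE 0.25, limma adjusted p = 0.0534), and -1.09 after rescaling (SE 0.33, limma adjusted p = 0.227). Of its 50-base words, 63.5% also occur in other annotated genes. Over the 10 H3 genes this share ran from 24.8% to 93.9%, so how reads were divided among them is uncertain.

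Hist1h3c (ENSMUSG00000069310, chr13:23744973-23745602) had the most negative log2 fold change of any member with a pseudocount of 1 on either scale, while with a pseudocount of 0.1 Hist1h2an was lower (-1.17 against -1.01), as with voom (-1.58 against -1.41). Hist1h3c stood at 9.09 and 11.8 RPKM in control and at 5.61 and 4.62 RPKM in knockout, for a log2 fold change of -0.90 (SE 0.31, limma adjusted p = 0.0813), and -1.20 after rescaling, with no overlap between the groups. Other H3 genes, chosen after their values were seen, behaved alike in sign. Hist1h3i was at 12.1 and 14.1 RPKM in control and at 8.94 and 6.08 RPKM in knockout. Hist1h3g was at 6.06 and 7.53 RPKM in control and at 3.86 and 4.02 RPKM in knockout. The groups overlap in neither gene. Hist1h3f was the H3 gene with the largest positive value, 0.09 on the deposited scale and -0.18 after rescaling, so its sign depends on the scale. Hist1h3b, close to the lowest levels listed, had 1.44 and 1.43 RPKM in control and 1.26 and 1.29 RPKM in knockout.

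H2A genes, whose product pairs with H2B on the outside of the tetramer, had a median log2 fold change of -0.29 over 15 genes, and -0.62 after rescaling. Both knockout libraries lay below both controls in 7 of them, and in 11 after rescaling, against 7.38% and 26.1% of all genes. Hist2h2ac, named after its values were seen, stood at 15.7 and 17.1 RPKM in control and at 9.23 and 9.30 RPKM in knockout, in 2 tight and separate pairs. Its log2 fold change was -0.76 (SE 0.27, limma adjusted p = 0.0929), and -1.09 after rescaling. Voom gave it the smallest adjusted p of the members in that fit, 0.0680. Hist1h2an (ENSMUSG00000069309, chr13:21786826-21787218) stood at 3.32 and 3.63 RPKM in control and at 1.58 and 1.40 RPKM in knockout, for a log2 fold change of -0.85 (SE 0.32, limma adjusted p = 0.133), and -1.08 after rescaling. This is also a clean separation, on 24 to 90 reads in each library, and 85.8% of its 50-base words occur in other genes. Among the abundant H2A genes, Hist1h2ak went from 33.1 and 42.9 RPKM in control to 29.0 and 25.2 RPKM in knockout. Hist1h2ab was at 52.5 and 58.0 RPKM in control and at 44.0 and 41.0 RPKM in knockout. Hist1h2ae was at 60.3 and 67.1 RPKM in control and at 55.8 and 49.8 RPKM in knockout. In these 3 genes the groups did not overlap, with deposited log2 fold changes from -0.47 to -0.27. Hist1h2ag overlapped, with 28.2 and 31.1 RPKM in control and 29.2 and 21.9 RPKM in knockout, while the pseudogene Hist1h2aj did not, with 14.7 and 17.1 RPKM in control and 13.4 and 11.4 RPKM in knockout.

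Hist3h2a and Hist1h2ad were the H2A genes above 0 on the deposited scale, at 0.65 and 0.20, and Hist1h2ad, named after its values were seen, was at -0.12 after rescaling. Hist3h2a (ENSMUSG00000078851, chr11:58954685-58956830, plus strand), from the small cluster on chromosome 11, stood at 1.98 and 1.64 RPKM in control and at 2.84 and 4.09 RPKM in knockout. Its log2 fold change was 0.65 (SE 0.32, limma adjusted p = 0.299), and 0.40 after rescaling. It was the 1 member higher at an unadjusted p under 0.05 on both scales. Its locus overlaps Trim17 on the same strand, so reads of the 2 genes may not be separable. Its cluster neighbour Hist3h2ba, an H2B gene, was at 1.74 and 2.35 RPKM in control and at 2.66 and 3.77 RPKM in knockout, for a log2 fold change of 0.46, and 0.20 after rescaling. In both genes of cluster 3 the knockout libraries lay above the controls on either scale. For Hist3h2ba this was nearly a tie after rescaling, at 2.719 RPKM in knockout library 1 and 2.711 RPKM in control library 2.

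H4 genes had a median log2 fold change of -0.24 over 10 genes, and -0.56 after rescaling. On the rescaled scale all 10 were below 0, against 48.1% of all genes. The class is dominated by 2 genes that lay on different sides of 0 on the deposited scale. Hist1h4d (ENSMUSG00000061482, chr13:23581598-23582735) was at 64.4 and 71.4 RPKM in control and at 52.2 and 63.1 RPKM in knockout, for a log2 fold change of -0.24, and -0.59 after rescaling. Hist1h4i was at 40.0 and 44.5 RPKM in control and at 45.2 and 50.1 RPKM in knockout, for a log2 fold change of 0.17, and -0.18 after rescaling. Both pairs of groups are separate, in opposite directions, and the sign of the second turns with the scale. Hist1h4n had the most negative H4 value with a pseudocount of 1, although voom put Hist1h4h lower, at -1.31 against -1.27. Hist1h4n had 6.81 and 11.3 RPKM in control and 6.20 and 3.78 RPKM in knockout. Its control libraries lie far apart, and its log2 fold change was -0.74 (SE 0.32, limma adjusted p = 0.220), and -1.04 after rescaling. Hist1h4j, at 1.15 and 1.33 RPKM in control and 1.63 and 1.01 RPKM in knockout, overlapped and changed sign with the scale.

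H2B and H1 genes sat closer to 0. The 12 tested H2B genes had a median log2 fold change of -0.05, and -0.27 after rescaling. All 13 listed H2B genes summed to 58.8 and 53.3 RPKM in control and 59.1 and 65.0 RPKM in knockout. Hist1h2bm had the lowest fold change of the tested ones, -0.54, and -0.78 after rescaling. It stood at 2.38 and 2.60 RPKM in control and at 1.10 and 1.75 RPKM in knockout. Hist1h2bg (ENSMUSG00000058385, chr13:23571396-23572013) was at 15.3 and 15.2 RPKM in control and at 21.5 and 18.5 RPKM in knockout, for a log2 fold change of 0.37, and 0.03 after rescaling. Hist1h2bh changed sign with the scale, from 0.02 to -0.17. Hist1h2be, with a mean of 0.966 RPKM, and Hist1h1d, with 0.950 RPKM, fell short of the 1 RPKM minimum mean and were not tested. Hist1h2be overlaps part of the Hist1h1e locus on the same strand, so their reads are uncertain too.

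Linker histone H1 binds the DNA between nucleosomes. The summed level of the 5 H1 genes was 38.8 and 35.7 RPKM in control and 42.7 and 45.0 RPKM in knockout, both knockout sums above both controls, with a ratio of 1.18 (0.926 after rescaling). Hist1h1c (ENSMUSG00000036181, chr13:23738808-23740367), the most abundant of them, stood at 19.5 and 15.8 RPKM in control and at 23.6 and 23.4 RPKM in knockout, for a log2 fold change of 0.40 (SE 0.24, limma adjusted p = 0.362), and 0.06 after rescaling. Hist1h1a was at 1.57 and 0.983 RPKM in control and at 1.86 and 2.47 RPKM in knockout, for a log2 fold change of 0.48, and 0.26 after rescaling. Hist1h1e had the lowest H1 value, -0.05, and -0.35 after rescaling, with 5.25 and 5.76 RPKM in control and 5.25 and 5.33 RPKM in knockout. The 4 tested H1 genes thus ranged from -0.05 to 0.48 on the deposited scale, and no test between classes was made.

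**Figure D2:**
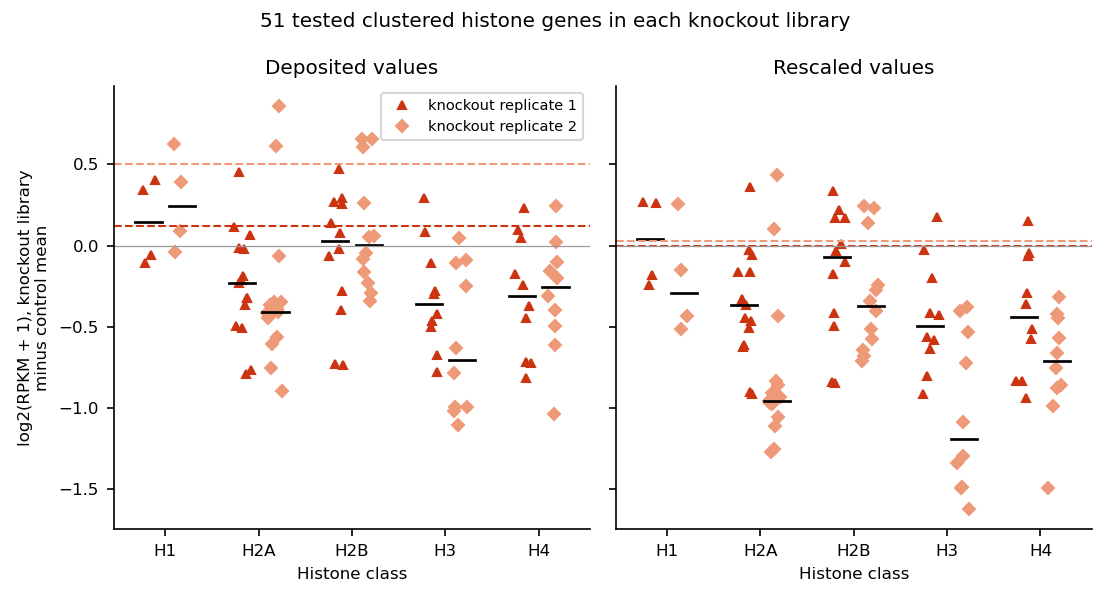
Each point is 1 of 51 tested genes in 1 knockout library, as log2(RPKM + 1) minus the mean of the controls, on the deposited (left) and rescaled (right) scale; black bars are class medians and dashed lines the medians of all genes in that library. H3 has the lowest class median in knockout library 2 on both scales, at -0.71 and -1.19.

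By genome cluster, the 45 tested genes of cluster 1 had a median of -0.24, and -0.55 after rescaling. The 4 of cluster 2 had -0.49, and -0.78 after rescaling, and the 2 of cluster 3 had 0.56, and 0.30 after rescaling. Cluster 2 held opposite values at close range. Hist2h2ac and Hist2h2be are neighbours on chromosome 3, at chr3:96220361-96220880 on the minus strand and chr3:96221119-96223738 on the plus strand. Hist2h2be stood at 1.34 and 1.04 RPKM in control and at 1.68 and 2.33 RPKM in knockout, for a log2 fold change of 0.45 against -0.76 for Hist2h2ac, and 0.23 against -1.09 after rescaling. The knockout libraries were thus both above the controls in one gene and both below in the other. Hist2h2be was named after its values were seen.

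Fold changes were also set against the annotated transcript end, since the library chemistry reads poly(A) RNA. The 7 members with AATAAA in their last 50 bases had a median log2 fold change of 0.40, and 0.06 after rescaling, near the 0.31 and 0.01 of all genes. The other 44 had -0.26, and -0.56 after rescaling. They include members annotated only up to the stop codon or close to it, where a later signal could not be seen. Among the 7, both knockout libraries lay above both controls in 4 genes on the deposited scale, as in 55.5% of all genes. After rescaling they did so in 3, in Hist3h2ba by a narrow margin, as in 28.4% of all genes. Hist1h2ae and Hist2h4 were below 0 on both scales. The 30 members with under 100 annotated bases after the stop codon had a median of -0.28, and -0.57 after rescaling. The 9 with 100 to under 500 bases had 0.04 and -0.18, and the 11 with 500 or more had 0.02 and -0.20. This contrast was found in these data and was not tested. It runs beside shared sequence, because long ends are also the more distinct part of a histone transcript. The 13 members with at least 80% of their 50-base words in other genes had a median of -0.29, and the 9 with under 20% had -0.01, or -0.56 and -0.34 after rescaling. Level showed little such difference, with -0.23 for the 18 members of at least 10 RPKM and -0.22 for the 33 below, or -0.57 and -0.47 after rescaling.

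**Figure D3:**
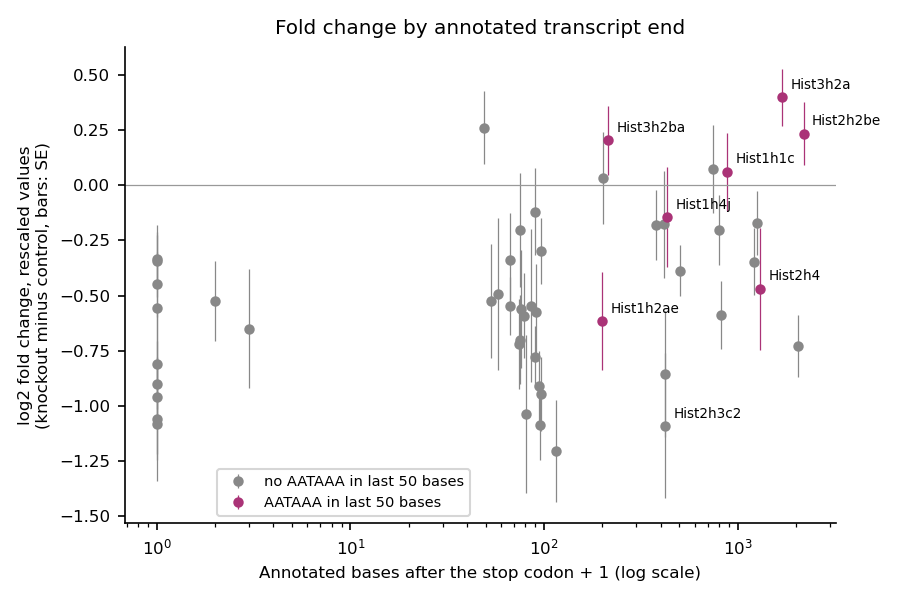
Rescaled log2 fold change (knockout minus control, bars are SE) of 50 tested members with an annotated stop codon, against the annotated bases after it plus 1 on a log axis. Members with AATAAA near the end of the transcript, in purple, lie between -0.62 and 0.40, and most members with under 100 bases lie below -0.25.

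Promoters of the family are known for a small set of elements shared within a class, among them the octamer of H2B genes and the AAACACA box of H1 genes. Stretches of 120 bases are printed for Hist1h1c and Hist1h2bg, an H1 and an H2B gene with positive deposited fold changes, to show both. They come from RefSeq on GRCm38.p6, plus strand, with the motifs in capitals. They lie at chr13:23738687-23738806, with AAACACA and CCAAT, and at chr13:23571280-23571399, with ATTTGCAT and TATAAA.
Hist1h1c: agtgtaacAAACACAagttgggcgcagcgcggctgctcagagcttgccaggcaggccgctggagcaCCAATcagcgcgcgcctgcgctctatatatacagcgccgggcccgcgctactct
Hist1h2bg: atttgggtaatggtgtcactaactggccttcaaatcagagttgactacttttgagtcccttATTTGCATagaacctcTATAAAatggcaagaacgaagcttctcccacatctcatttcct
RefSeq promoters matched 45 of the 53 genes, and the 250 bases before the start were searched on both strands for exact letters, none of the motifs containing another. CCAAT was found in 82.2% of the members against 34.5% of 27025 promoters, in every H1, H2A and H2B promoter matched but in 2 of 9 H4 promoters. TATAAA was found in 53.3% against 13.0%. ATTTGCAT was found in 22.2% against 1.61%, in 6 of 13 H2A and 4 of 11 H2B promoters and in none of the other classes. AAACACA was found in 11.1% against 6.22%, and in 3 of 4 H1 promoters. A match describes letters and is not a measured binding site.

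Genes that make and handle histone messages were compared by lists chosen with earlier results of these data known. Of 17 tested genes for 3′ processing of histone mRNA, 0 were called in either direction, with a median log2 fold change of 0.20, and -0.12 after rescaling. Slbp, encoding the stem-loop binding protein, was at 66.3 and 66.7 RPKM in control and at 74.4 and 63.7 RPKM in knockout (log2 fold change 0.05, limma adjusted p = 0.856). Snrpb and Snrpe, which encode Sm ring proteins, were the most abundant of the list, with log2 fold changes of 0.02 and -0.19. Of 14 genes for histone gene transcription, 0 were called, with a median of 0.29, and 0.02 after rescaling. Ccna2, an S phase cyclin, and Ssrp1, a subunit of the FACT chaperone, had the highest levels, with log2 fold changes of -0.21 and -0.03. Npat, the coactivator of histone gene clusters, had 3.33 and 3.29 RPKM in control and 3.93 and 5.52 RPKM in knockout, for a log2 fold change of 0.40 (limma adjusted p = 0.477). Of 8 tested genes for histone mRNA decay, 0 were called, with a median of 0.32, and 0.03 after rescaling. Exosc10, a nuclease of the RNA exosome, and Eri1, which trims the histone stem-loop, had 0.30 and 0.18.

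Histones listed as replication-independent, most of them made also outside S phase and from polyadenylated messages, had 1 of 10 tested genes called. H1f0, a linker histone linked with cells that stop dividing, rose from 22.0 and 32.2 RPKM in control to 40.0 and 72.5 RPKM in knockout, for a log2 fold change of 0.99 (SE 0.21, limma adjusted p = 1.40e-04). After rescaling it was 0.64 and was not called (limma adjusted p = 0.296). H2afz, the most abundant variant, was at 1833 and 1815 RPKM in control and at 1659 and 1343 RPKM in knockout (log2 fold change -0.29, limma adjusted p = 0.358), and H3f3b had a log2 fold change of -0.01. The list median was 0.04, and -0.31 after rescaling. Histone chaperones had 0 of 17 called and a median of 0.12, and -0.23 after rescaling. Npm1 and Rbbp7, the most abundant of them, had log2 fold changes of -0.11 and -0.09.

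Genes of DNA replication in S phase, in which the clustered histone genes are transcribed, had 0 of 35 called. Their median was 0.12, and -0.21 after rescaling, against -0.22 and -0.55 for the clustered histone genes. Pcna, the sliding clamp, was at 359 and 382 RPKM in control and at 441 and 341 RPKM in knockout, and Mcm7, a helicase subunit, had a log2 fold change of -0.11. Of 16 mitosis genes, 1 was called, Ube2c, a ubiquitin-conjugating enzyme of the anaphase-promoting complex. It fell from 184 and 189 RPKM in control to 108 and 141 RPKM in knockout, for a log2 fold change of -0.59 (limma adjusted p = 0.0170), and was not called after rescaling (-0.95, limma adjusted p = 0.133). Cdc20 and Ccnb2, the most abundant uncalled mitosis genes, had 0.00 and 0.07. The mitosis median was -0.12, and -0.47 after rescaling, the closest of these lists to the histone median. After rescaling, 16 of 16 mitosis, 30 of 35 S phase and 15 of 17 chaperone genes were below 0, against 44 of 51 histone genes. Rescaled knockout libraries both lay below both controls in 1 of 8 decay genes to 14 of 16 mitosis genes, against 33 of 51. On the deposited scale, 0 of 8 decay genes to 9 of 16 mitosis genes were below 0, against 38 of 51. No test between lists was made.

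**Figure D4:**
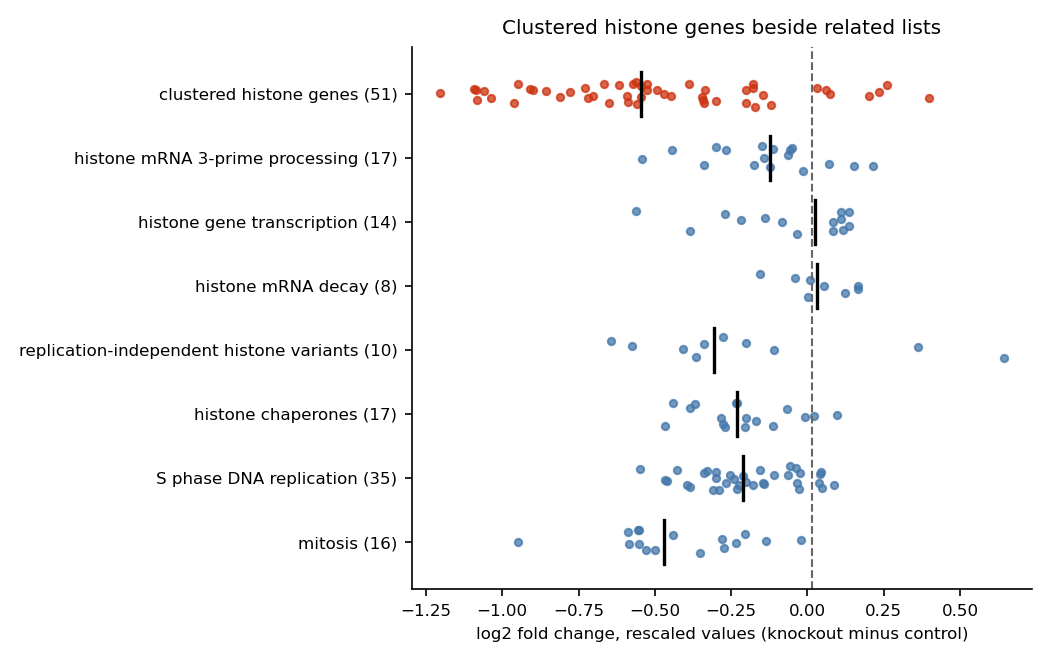
Rescaled log2 fold change, knockout minus control, of each tested gene of the clustered histone genes and 7 related lists, with list medians as black bars and the median of all genes as a dashed line. The clustered histone genes have the lowest list median, -0.55, and range from -1.20 to 0.40.

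Calls among the members depended on which libraries were in the fit. Without knockout library 1, limma called 17 of 51 members lower (33.3%, against 4.48% of all genes) and 5 higher (9.80%, against 54.3%). Without knockout library 2, or without either control, it called 0 members in either direction.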

How the data were processed

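The authors deposited 1 table of RPKM values for 12390 genes in 4 libraries, a unit identified from the values. Value times the longest GENCODE M21 transcript length gave whole reads within 0.1 for 99.39% to 99.42% of values, and a gene without reads stands at 0.001. Per the submitters' processing notes the genome build was mm10. No aligner, counter or rule for reads matching several genes is given in the sources used here. Symbols were found for 12381 IDs. Limma (version 3.58.1, R 4.3.3) was fitted with a trend on log2(RPKM + 1), with genotype as sole term and 2 residual degrees of freedom, over the 11742 genes whose mean reached 1 RPKM. Calls are Benjamini-Hochberg adjusted p-values under 0.05. The fit used the trend in place of the spread of single genes, so p-values are too small where replicates differ. The script was tested on simulated data. Members, lists and the rule for named genes (Ddx21, called members, the 12 highest and 5 lowest levels, the extremes of each class, and called or 2 most abundant genes of each list) were chosen with earlier results of these data known. Rescaling, quantile normalization, voom, another pseudocount, no filter, a replicate block and leaving out each library were tried. One marker gene result is not reported here.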

Additional observations from a re-analysis of the deposited data

How the results depend on the processing

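Over all genes the calls depended on scaling. The 391 higher calls became 1 after rescaling, 0 after quantile normalization, 51 with voom and 175 with the replicate block, and the 101 lower calls became 0, 0, 22 and 64. Leaving out 1 library gave 27 to 6381 higher and 5 to 526 lower. Replicate numbers do not pair the libraries by label, and the deviations of libraries with the same number correlated at 0.067 in this paired check. Members called lower went from 0 to 1 with a pseudocount of 0.1 and to 1 without a filter, in both cases Hist2h3c2 (limma adjusted p = 0.04996 and 0.0497, against 0.0534, and 0.249 with the replicate block). Members called ranged from 0 to 17 lower and 0 to 5 higher when a library was left out, the extremes without knockout library 1. The related lists, with 1 higher and 1 lower call, had 0 and 0 under rescaling, quantile normalization and voom. The member median of -0.22 became -0.55, -0.54 and -0.64 under the same 3 settings. Of the 24 tested members named by the rule, signs reversed under these 3 settings for Hist1h2bh (-0.17, -0.26, -0.33), Hist1h3f (-0.18, -0.24, -0.29), Hist1h4i (-0.18, -0.021, -0.19) and Hist1h4j (-0.15, -0.21, -0.35). Outside the 24, Hist1h2ad and Hist1h3d also turned negative, at -0.12 and -0.20 after rescaling and -0.11 and -0.28 with voom. Leaving out 1 library turned the sign of 5 of the 24 members named by the rule. These ran from -0.104 to 0.0086 for Hist1h1e, -0.391 to 0.114 for Hist1h2ap, -0.022 to 0.058 for Hist1h2bh, -0.108 to 0.292 for Hist1h3f and -0.158 to 0.233 for Hist1h4j. Members outside the 24 turned too, such as Hist1h2ad, at -0.21 without knockout library 2 and 0.61 without knockout library 1. The cause of these differences was not tested.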
